A study of Mus musculus with 4 samples.

Results

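The genes described here encode the proteins of the cytosolic ribosome of the mouse. They were chosen by symbol, as every gene named Rpl or Rps with a number, together with Rplp0, Rplp1, Rplp2 and Rpsa, that held at least 50 UMIs (unique molecular identifiers, which count captured transcripts) over the 4 libraries. This gave 85 of the 32285 genes in the deposited table. Rpl10l held too few UMIs and was left out, as were 5 pseudogene symbols and 10 symbols of ribosomal protein kinases. Of the 85, 43 encode proteins of the large subunit, 31 proteins of the small subunit, and 3 the stalk that recruits translation factors. A further 7 are second copies beside a main gene (Rpl22l1, Rps27l, Rps27rt, Rpl36al, Rpl3l, Rpl39l and Rpl7l1), and Rps19bp1 encodes a binding partner of a ribosomal protein that the symbol rule takes in.

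Ribosomal proteins are made in step with ribosomal RNA and are assembled with it in the nucleolus, with the help of factors such as nucleophosmin (Npm1), nucleolin (Ncl) and fibrillarin (Fbl). Their messages are among the most abundant of growing cells, and many begin with a run of pyrimidines through which nutrient signalling controls their translation. Neutrophils leave the cell cycle as they pass from promyelocytes, which build the primary granules, through the immature stages that make the secondary granules, to mature cells, which are known to hold few ribosomes.

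The cells came from tibial fracture calluses of male C57BL/6J mice aged 20 months, taken 7 days after treatment with either an empty microgel (control) or a microgel that carried adenosine, with 2 libraries of each. The labels name bone marrow as the tissue, although the cells they describe were released from the callus, cleared of red cells by lysis and sorted for viability. Whether each library is a different animal is not in the labels, and the p-values here measure only how libraries vary, which may be technical. Where 4 values are listed, they are for controls 1 and 2, then adenosine libraries 1 and 2.

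The libraries held 6753 to 9949 cell barcodes and 32277757 to 68117846 UMIs, and 31330 cells were kept. Pairs of libraries shared 13 to 28 barcodes. Each cell was put in a class by its score on marker genes, none of them a ribosomal protein gene, and the class names stand for these marker gates. Control 2 stood apart in its makeup: 95.1% of its neutrophil lineage cells were mature, against 46.3% to 51.8% in the other 3 libraries, and it held 4 promyelocytes against 248, 404 and 311. As a measure of free RNA, the B cell markers summed to 7.33 to 34.1 CPM (counts scaled to 1000000 UMIs of the class) in mature neutrophils and to 11985 to 16199 CPM in B cells. The 5 promyelocyte markers summed to 8134 to 14973 CPM in promyelocytes, to 116, 3.70, 106 and 173 CPM in the mature neutrophils of control 1, control 2, adenosine 1 and adenosine 2, and to 62.5, 0, 67.9 and 108 CPM in their B cells. They were thus lowest in control 2, and the part of free RNA in the ribosomal protein shares of mature neutrophils was not tested. Only 33 cells passed the gate of mesenchymal markers, so the data describe the blood cells of the callus.

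The share of UMIs that fell in the 85 genes followed the stage of the neutrophil. In promyelocytes it was 20.9%, 19.4% (from the 4 cells of control 2), 21.6% and 22.3%. In immature neutrophils that carried cell cycle genes (dividing) it was 5.56%, 4.65%, 7.51% and 6.07%, and in those that did not (non-dividing) 2.61%, 2.66%, 2.83% and 2.73%. Mature neutrophils had 2.47%, 1.79%, 2.28% and 2.30%. The stages kept this order in each of the 4 libraries, and the ranges of neighbouring stages did not overlap. The mean number of ribosomal protein UMIs in a cell was 4340 to 4860 in promyelocytes, 524 to 682 in dividing and 110 to 184 in non-dividing immature neutrophils, and 52.1 to 59.6 in mature neutrophils.

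Most other blood cells had a higher share than the neutrophil stages past the promyelocyte. Monocyte-macrophages had 12.5%, 11.9%, 13.2% and 12.9%, dendritic cells 12.9%, 14.3%, 11.9% and 13.2%, B cells 12.9%, 20.9%, 12.1% and 15.2%, and T or NK cells 15.6%, 19.6%, 14.1% and 16.7%. Control 2 was the highest library in dendritic, B and T or NK cells, the last 2 from 74 and 43 cells, and the lowest in monocyte-macrophages. Progenitors, with 82, 3, 80 and 56 cells, had 17.8%, 21.2%, 17.3% and 20.2%. Plasma cells, which secrete antibody, had 5.69% in adenosine 1, the library that held 80 of the 88. That value may not hold for the class. Rpsa, for example, had 1922, 2363, 785 and 479 CPM in plasma cells, from 87, 204, 1352 and 6 UMIs.

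**Figure D1:**
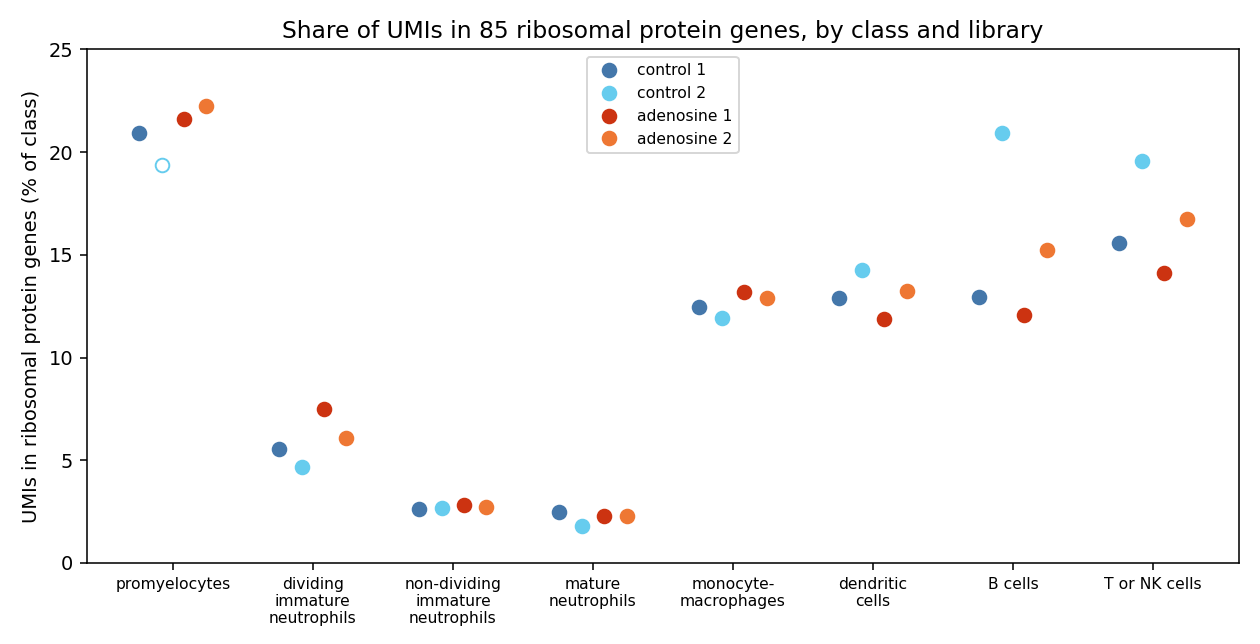
Percent of all UMIs of a class that fall in the 85 ribosomal protein genes (vertical axis) for each class, 1 point per library; open points mark libraries with fewer than 20 cells of that class. Promyelocytes lie between 19.4% and 22.3%, mature neutrophils between 1.79% and 2.47%, and B cells range from 12.1% to 20.9%.

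The shares were compared within libraries with an exact sign-flip permutation test (two-sided), which over 4 libraries cannot go below p = 0.125. It gave that value for dividing against non-dividing immature neutrophils (3.24 percentage points higher, in 4 of 4 libraries), for mature against non-dividing immature neutrophils (a difference of -0.496 points, lower in 4 of 4) and for monocyte-macrophages against mature neutrophils (10.4 points higher, 4 of 4). Adjusted over the 17 comparisons of shares, each of these exact p-values became 0.515. B cells and monocyte-macrophages differed by 2.66 points (exact p = 0.375), and dendritic cells and monocyte-macrophages by 0.437 points (exact p = 0.625), with libraries on both sides of 0. Dividing cells had a median of 8272 to 12866.5 UMIs and non-dividing cells one of 3630 to 6115 UMIs. Their difference in share was 2.11 points by the median over cells, and 0.748 points in cells with 3000 to 6000 UMIs, a range chosen after seeing the data. The part of depth in it was not tested. In that range monocyte-macrophages stood 7.82 points above mature neutrophils.

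The fall from promyelocytes to dividing immature neutrophils ran through the whole set. Every gene that could be tested was higher in promyelocytes, 83 of 83, where 37.1% of all 11045 genes tested were higher and 36.6% lower. The median log2 difference was 1.35, from 0.50 to 2.35, and that of all genes tested was 0.02. The test was edgeR's quasi-likelihood test on counts summed per class and library, with libraries as blocks, an adjusted p under 0.05 (Benjamini-Hochberg over all genes) as the threshold, and the 3 libraries with at least 20 cells of both classes, a choice made after seeing the data. These log2 differences rest on the TMM scaling. Library size alone moved the median of all genes to 0.48 and that of the set to 1.82.

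Rps2, a small subunit protein, differed most. Its level was 4404, 3908, 4506 and 5399 CPM in promyelocytes and 519.7, 376, 828 and 714 CPM in dividing immature neutrophils, where the second value of promyelocytes rests on 4 cells and took no part in the test. The 2 ranges lay far apart (log2 2.35, SE 0.132, adjusted p = 3.71e-07). Values in brackets are the log2 difference and its standard error (SE). Rpl14, of the large subunit (2.01, SE 0.112), Rpl12, which forms the base of the stalk (1.90, SE 0.125), and the stalk protein Rplp1 (1.87, SE 0.122) followed. The smallest differences were those of Rpl7l1 (0.50, SE 0.0929), Rps27rt (0.67, SE 0.196) and Rps9 (0.74, SE 0.105).

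Genes that build ribosomes differed at the same step. Of 52 ribosome biogenesis genes 49 were higher in promyelocytes and 0 lower, with a median log2 of 1.75. Npm1 had 1462, 658, 1438 and 1631 CPM in promyelocytes and 138, 97.0, 158 and 138 CPM in dividing immature neutrophils (log2 2.92, SE 0.0999, adjusted p = 3.91e-08). The difference was 3.27, SE 0.110 for Fbl, which methylates ribosomal RNA, and 3.51, SE 0.177 for Myc, a transcription factor known to drive ribosome production. Among 35 translation factors 30 were higher and 1 lower, and among 78 mitochondrial ribosomal proteins 67 were higher and 1 lower.

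Between dividing and non-dividing immature neutrophils the set fell again. Of 84 genes tested 78 were higher in dividing cells and 1 lower, against 36.4% and 36.0% of all 9852 genes tested, with a median log2 of 0.93 (1.19 by library size, where the median of all genes was 0.26). All but 1 of the 43 large subunit genes, 28 of the 31 small subunit genes and all 3 stalk genes were higher. Rpl36a, a large subunit protein, had 304, 194, 504 and 308 CPM in dividing and 62.3, 47.8, 75.9 and 63.1 CPM in non-dividing cells (log2 2.13, SE 0.104, adjusted p = 2.74e-10), with no overlap. Rpl3, which reaches toward the peptidyl transferase centre (1.84, SE 0.0935), Rpl12 (1.79, SE 0.104) and Rpsa, a small subunit protein also known as a laminin receptor (1.77, SE 0.108), came next.

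The stalk genes differed at this step by 1.15, SE 0.145 (Rplp0), 1.15, SE 0.110 (Rplp1) and 1.15, SE 0.104 (Rplp2). Rpl5 (1.08, SE 0.106) and Rpl11 (0.73, SE 0.0877), which enter the ribosome together with an RNA of the large subunit and can bind Mdm2, were both higher. Of the other translation genes, 35 of 44 ribosome biogenesis genes, 31 of 35 translation factors and 59 of 76 mitochondrial ribosomal proteins were higher, while 2, 2 and 3 were lower. Genes that control translation, such as kinases of the initiation factors, had 6 of 21 higher and 7 lower, against 36.4% and 36% of all genes tested.

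In the last step, from non-dividing immature to mature neutrophils, 48 of 84 genes fell and 2 rose, against 23.7% and 23.2% of all 10286 genes tested, with a median log2 of -0.50. Rpl22l1, the second copy of Rpl22, fell most, from 53.2, 44.8, 62.5 and 53.0 CPM to 22.1, 25.4, 14.7 and 19.3 CPM (log2 -1.48, SE 0.208, adjusted p = 0.00165). The small subunit genes Rps18 (-1.24, SE 0.247), Rps4x (-1.21, SE 0.306) and Rpsa (-1.14, SE 0.205) and the large subunit genes Rpl32 (-1.19, SE 0.161) and Rpl4 (-1.17, SE 0.217) fell as well. The count of genes that fell depends on single libraries. It was 22 without adenosine 1, 23 without adenosine 2, 30 without control 1 and 62 without control 2. Of 76 mitochondrial ribosomal proteins 41 fell and 4 rose, while among 35 translation factors 9 fell and 1 rose, and among 42 ribosome biogenesis genes 8 fell and 3 rose.

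Over all these stages the genes did not fall alike. In the 3 libraries with enough promyelocytes, the CPM in promyelocytes was a median of 10.7 times that in mature neutrophils over 84 genes, with quartiles of 7.17 and 17.2. It was over 20 times for 13 genes, led by Rpl22l1 (32.1), Rps18 (31.8) and Rpl12 (30.8). It was under 5 times for 7: Rps27rt (1.66), Rps27 (1.98), Rps9 (2.02), Rpl7l1 (3.54), Rpl37 (3.59), Rps27a (3.71) and Rpl3l, which was higher in mature cells (0.0662). These ratios describe the libraries and carry no test, and the genes of the second group were singled out after their values were seen.

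**Figure D2:**
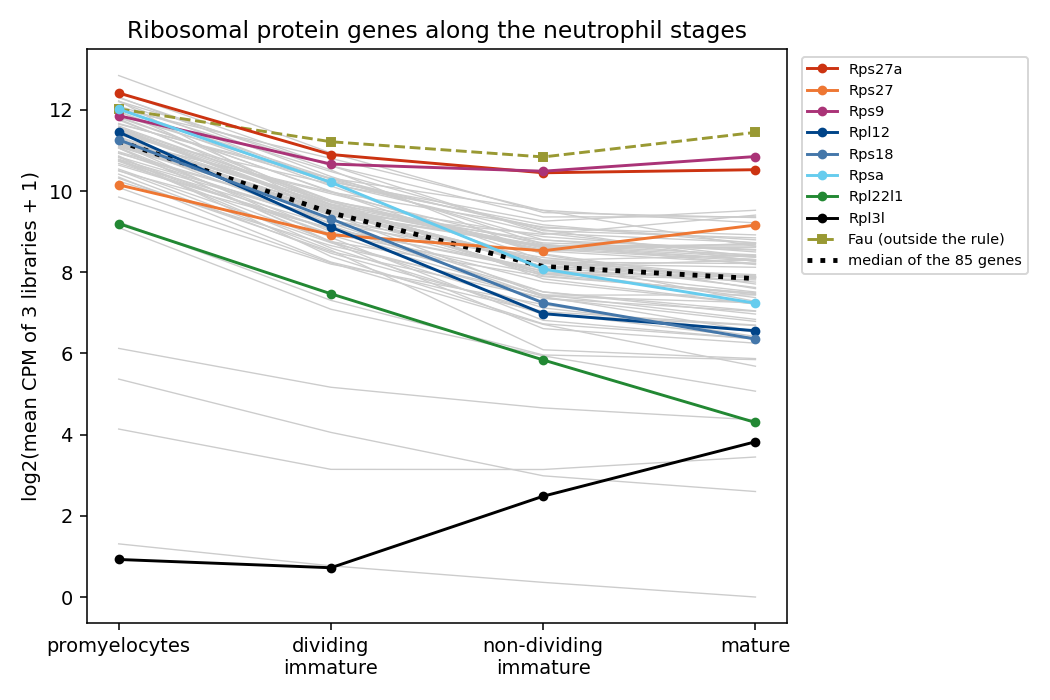
Level of each ribosomal protein gene at 4 neutrophil stages, as log2 of the mean CPM of control 1, adenosine 1 and adenosine 2 plus 1, with some genes coloured. Most lines fall together from promyelocytes to mature cells, those of Rps27 and Rps9 fall little, and that of Rpl3l is highest in mature cells.

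Rps27a, which encodes ubiquitin fused to a small subunit protein, fell in the first step and was not called in the next 2. It had 5398, 4795, 5630.1 and 5338 CPM in promyelocytes and 1706, 1077, 2179.9 and 1842 CPM in dividing immature neutrophils. Non-dividing cells had 1326, 1259, 1433 and 1433 CPM and mature cells 1423, 544, 1439.5 and 1556 CPM, where control 2 lay far below the other 3 libraries. Dividing and non-dividing cells differed by 0.01 (SE 0.126, adjusted p = 0.947; 0.29 by library size), and mature and non-dividing cells by -0.30 (SE 0.255, adjusted p = 0.366).

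Rps27, a small subunit protein with a zinc finger, rose in the last step, from 388, 317, 405 and 311 CPM to 616, 542, 601 and 497 CPM (log2 0.61, SE 0.123, adjusted p = 0.00705). The ranges did not overlap, but the call was lost without control 1 or adenosine 1. Rps9, a small subunit protein that binds ribosomal RNA early in assembly, had 1328, 1491, 1613 and 1366 CPM in non-dividing and 1792, 1228, 2022 and 1719 CPM in mature cells, higher in 3 of 4 libraries (log2 0.14, SE 0.174, adjusted p = 0.538). Rpl37 had 487, 406, 513 and 463 CPM and 704, 423, 716 and 614 CPM (log2 0.31, SE 0.142, adjusted p = 0.117). Between dividing and non-dividing cells Rps9 lay at -0.18 under TMM and 0.10 by library size, so the sign depends on the scaling.

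Ribosomal proteins whose symbols lie outside the rule differed in direction at this step. Fau, a ubiquitin-like protein fused to a small subunit protein, rose from 1739.5, 1954, 1794 and 1961 CPM in non-dividing immature to 2821, 3004, 2549.7 and 2989 CPM in mature neutrophils (log2 0.54, SE 0.145, adjusted p = 0.0202), a call lost without control 1, adenosine 1 or adenosine 2. Rack1, a scaffold on the small subunit, fell (log2 -0.58, SE 0.141, adjusted p = 0.0140).

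Rpl3l, a copy of Rpl3 known from striated muscle, was higher in mature than in non-dividing immature neutrophils, at a low level. It had 0.973, 0, 1.28 and 0.444 CPM in promyelocytes, 0.398 to 1.67 CPM in dividing immature cells (1 to 5 UMIs a library), 4.14, 3.04, 4.87 and 4.78 CPM in non-dividing immature and 15.6, 29.3, 13.9 and 9.93 CPM in mature neutrophils. Promyelocytes and dividing cells overlapped. Mature and non-dividing cells did not overlap (log2 1.67, SE 0.283, adjusted p = 0.00346), while the main gene Rpl3 lay at -0.56 (SE 0.179, adjusted p = 0.0385). In the GENCODE M21 annotation of GRCm38, Rpl3l (chromosome 17, 24727820 to 24736143, plus strand) ends 498 bases before Msrb1, on the same strand, a gene used as a marker in the mature neutrophil gate. Msrb1 had 2687, 2128, 2087 and 3091 CPM in mature neutrophils and 515, 1037, 426 and 495 CPM in promyelocytes. Its part in the Rpl3l counts was not tested.

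Promoters are printed to set genes that fell steeply beside genes that did not. RefSeq promoters of GRCm38.p6, 250 bases before to 50 after the annotated start, matched 65 of the 85 genes. CCGGAAG, a core bound by Ets factors, stood in 38.5% of the 65 and in 9.12% of 27025 promoters of all genes. GGGCGG, the box bound by Sp1, stood in 60.0% against 35.9%, and AAGATGGC, a core bound by Yy1, in 7.69% against 2.88%. CACGTG, the E-box, was about as frequent in both (7.69% against 7.24%), and TATAAA was rarer in the set (9.23% against 14.2%). These 5 were searched on both strands of the whole window and counted also where they overlap each other. CTCTTT, a pyrimidine run, was searched on the gene's strand from 25 bases before to 50 after the start and stood in 27.7% against 2.72%. A match of letters is a description, not a site.

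The stretches run from 120 bases before to 15 after the start, 5′ to 3′ on the gene's strand, with matches to the 6 motifs in capitals. Rps18 and Rpl12 fell steeply, Rps27, Rps9 and Rpl37 fell little, and Rpl3l was higher in mature than in non-dividing cells.
Rps18 (chr17:33955651-33955785, minus strand): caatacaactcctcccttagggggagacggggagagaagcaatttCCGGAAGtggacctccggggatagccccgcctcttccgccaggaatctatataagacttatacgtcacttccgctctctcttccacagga
Rpl12 (chr2:32961592-32961726, plus strand): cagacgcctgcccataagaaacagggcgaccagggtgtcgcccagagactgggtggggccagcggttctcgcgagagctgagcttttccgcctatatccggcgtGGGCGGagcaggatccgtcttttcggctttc
Rps27 (chr3:90213634-90213768, minus strand): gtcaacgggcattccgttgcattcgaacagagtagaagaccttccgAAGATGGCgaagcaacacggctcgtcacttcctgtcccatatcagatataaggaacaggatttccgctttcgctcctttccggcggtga
Rps9 (chr7:3703921-3704055, plus strand): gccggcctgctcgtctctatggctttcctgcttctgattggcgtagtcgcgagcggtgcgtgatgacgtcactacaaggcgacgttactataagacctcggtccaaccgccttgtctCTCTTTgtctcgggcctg
Rpl37 (chr15:5116493-5116627, plus strand): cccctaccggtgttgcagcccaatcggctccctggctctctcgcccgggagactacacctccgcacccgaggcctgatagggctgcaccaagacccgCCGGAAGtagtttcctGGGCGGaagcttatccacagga
Rpl3l (chr17:24727706-24727840, plus strand): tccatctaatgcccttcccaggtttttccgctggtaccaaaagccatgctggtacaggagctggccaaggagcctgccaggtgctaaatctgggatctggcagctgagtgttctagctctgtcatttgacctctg
The Ets core stands in the printed stretch of Rps18 and in that of Rpl37, and the Sp1 box in those of Rpl12 and Rpl37. The stretch of Rpl3l holds none of the 6 motifs. That of Rpsa, which fell in the last step and is not printed, holds none of them either.

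Monocyte-macrophages carried more of nearly every ribosomal protein message than mature neutrophils. Of 84 genes tested 77 were higher and 1 lower, against 39.4% and 35.2% of all 11955 genes tested, with a median log2 of 1.76. By library size the median was 2.65, and that of all genes 1.00. Rpsa had 2189, 1734, 2449 and 2640.1 CPM in monocyte-macrophages and 178, 80.7, 119 and 153 CPM in mature neutrophils (log2 3.25, SE 0.186, adjusted p = 2.00e-05), and every library of the first lay above every library of the second. Rpl10a, of the large subunit (3.30, SE 0.214), Rps18 (3.26, SE 0.223) and Rpl3 (3.22, SE 0.173) differed by as much.

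The genes that fell little along the neutrophil stages were not called here. This comparison shares its mature neutrophils with the stages, so it is no independent observation of them. Rps27 had 1191, 1039, 1139 and 932 CPM in monocyte-macrophages and lay at 0.05 under TMM (SE 0.118, adjusted p = 0.726) and at 0.93 by library size. Rps9 lay at 0.23 (1.11 by library size) and Rps27a at 0.49 (1.37). Fau changed sign with the scaling, from -0.38 to 0.51, and Rps27rt from -0.16 to 0.72. Rpl3l, at 2.85, 3.50, 1.42 and 0.942 CPM in monocyte-macrophages, was the gene that was lower (log2 -3.88, SE 0.239, adjusted p = 2.37e-05).

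Between B cells and monocyte-macrophages single genes differed, with a median log2 of 0.05 over the set (0.22 by library size). Of 84 genes tested 5 were higher in B cells and 5 lower, below the 26.0% and 26.8% of all 11816 genes tested. Rpl12 had 1893, 3302, 1738 and 2348 CPM in B cells and 1048, 1008, 1157 and 1091 CPM in monocyte-macrophages, with no overlap (log2 0.89, SE 0.204, adjusted p = 0.00617). Rps27 had 1829, 2423, 2300.3 and 2284 CPM in B cells (log2 0.87, SE 0.184, adjusted p = 0.00426). Rps27rt (0.90, SE 0.175), Rpl13a, a large subunit protein also known from interferon responses (0.67, SE 0.179), and Rps21, of the small subunit (0.55, SE 0.185), were the others.

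Rps27l, the second copy of Rps27 and a known target of p53, differed the other way. It had 199, 164, 78.8 and 100.1 CPM in B cells and 277, 300.5, 309 and 297 CPM in monocyte-macrophages (log2 -1.39, SE 0.238, adjusted p = 0.00139). Rpl36al, the second copy of Rpl36a, was also lower in B cells, with 419, 558, 322 and 423 against 712, 771, 752 and 765 CPM (log2 -1.0, SE 0.162, adjusted p = 0.00104), while Rpl36a lay at 0.31 (SE 0.171, adjusted p = 0.160). In both copies every B cell library lay below every monocyte-macrophage library. Rpl10 (-0.64, SE 0.200), Rplp0 (-0.60, SE 0.206) and Rps27a (-0.56, SE 0.199) completed the list. The counts moved with the scaling and with single libraries: library size gave 11 higher and 2 lower, and 12 were lower without control 2 and 2 without each of the others.

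**Figure D3:**
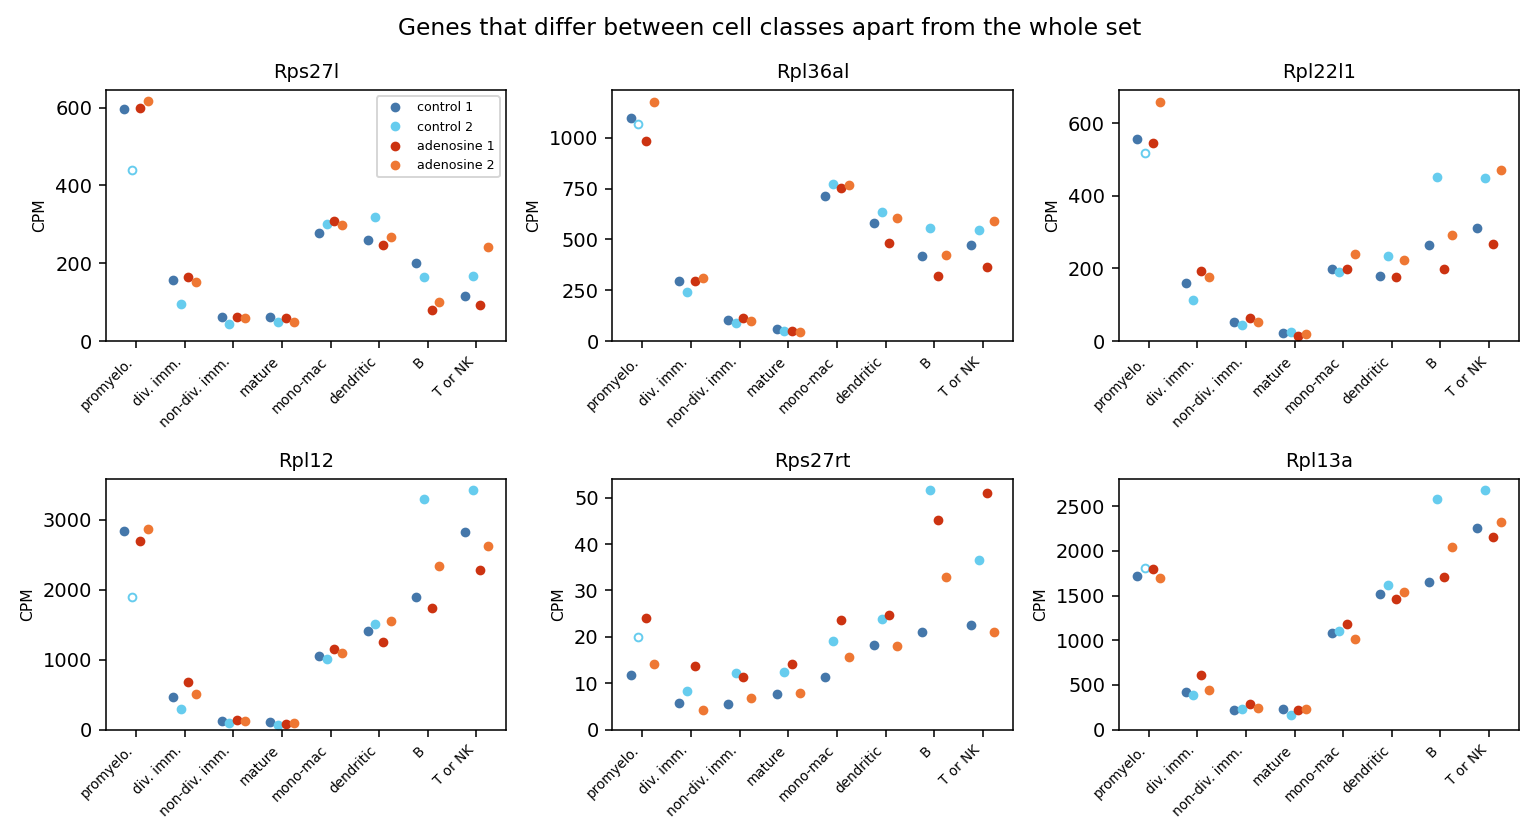
CPM of 6 ribosomal protein genes in 8 classes, 1 point per library, with open points for libraries under 20 cells of that class. Rps27l and Rpl36al lie lower in B cells than in monocyte-macrophages, and Rpl12 lies higher, in each of the 4 libraries.

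Rps27rt is a near copy of Rps27 on another chromosome. From 35 bases before to 50 after the start, the 2 RefSeq promoters share an unbroken run of 38 bases, and the 30 bases around each start are printed with the part inside that run in capitals.
Rps27 (chr3:90213634-90213663, minus strand): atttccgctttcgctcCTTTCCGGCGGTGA
Rps27rt (chr9:114982725-114982754, minus strand): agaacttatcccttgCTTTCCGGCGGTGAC
Rps27rt had 11.4, 19.1, 23.7 and 15.6 CPM in monocyte-macrophages, and its part in reads of Rps27, or the reverse, was not tested, so its values are uncertain. The other second copies resemble their main genes as well. Another annotated gene overlaps 50 of the 85 genes, for 35 of them on the same strand, and nothing used here tells how such reads were assigned.

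The second copies can be set beside their main genes, each by its range over the 4 libraries. Rpl22 had 72.9 to 118 CPM in mature neutrophils, 921 to 1051 CPM in monocyte-macrophages and 973 to 1309 CPM in T or NK cells, and Rpl22l1 had 14.7 to 25.4, 191 to 240.4 and 268 to 469.7 CPM in the same classes. Rpl7l1, known from ribosome assembly, had 59.3 to 81.9 CPM in promyelocytes and 18.4 to 35.7 CPM in mature neutrophils, where Rpl7 had 1435 to 1830.1 and 133 to 237 CPM. Rpl39l, the copy of Rpl39 known from germ cells, had 0 to 2.96 CPM in promyelocytes and 0 to 0.148 CPM in mature neutrophils, against 2532 to 3713 and 238 to 312 CPM for Rpl39. Rps19bp1, the binding partner, had 34.9 to 99.7 and 4.44 to 11.8 CPM. The promyelocyte ranges include the 4 cells of control 2, which gave the 99.7 CPM of Rps19bp1 from 10 UMIs and the 1435 CPM of Rpl7. Among the abundant translation genes beside the set, the last neutrophil step gave -0.11, SE 0.147 for the elongation factor Eef1a1 (adjusted p = 0.562), -0.08, SE 0.123 for Eef2 (adjusted p = 0.635) and -0.13, SE 0.218 for Tpt1 (adjusted p = 0.639).

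T or NK cells were compared with B cells in the same way. In edgeR's test 0 of 83 genes were called, against 12.3% higher and 10.6% lower of all 9462 genes tested. An unadjusted p under 0.05 was found for 6 of the 83, against 3162 of the 9462. DESeq2 called 2 of the set higher and 2151 genes of any kind. The median log2 was 0.16. Rplp1 had 4121, 4730.3, 4043 and 3783 CPM in T or NK cells and 2574, 3886, 2642 and 2786 CPM in B cells, higher in 4 of 4 libraries although the ranges overlap (log2 0.52, SE 0.159, adjusted p = 0.0511).

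Between dendritic cells and monocyte-macrophages, 4 of 83 genes were higher and 2 lower, below the 18.7% and 20.2% of all 11651 genes tested. Rpl31, of the large subunit, had 586, 706, 674 and 731 CPM in dendritic cells and 415, 554, 523 and 368 CPM in monocyte-macrophages, with no overlap (log2 0.43, SE 0.118, adjusted p = 0.0266). Rpl13a (0.37, SE 0.0974) and Rpl14 (0.32, SE 0.105) were also among the higher genes, and Rpl36al (-0.51, SE 0.104) was among the lower. No gene was called higher without control 1, adenosine 1 or adenosine 2, and 22 were called lower without control 2. Of the dendritic cells 10.7% lay close to the border with another marker list.

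The study asked whether an adenosine microgel changes the healing callus, and the set was compared between the groups in 8 classes. edgeR's quasi-likelihood test called 0 ribosomal protein genes and 0 genes of any kind (0% of those tested) in each. An unadjusted p under 0.05 was found for 1 of 85 genes in all cells, 4 of 84 in immature and 0 of 84 in mature neutrophils, 1 of 85 in the neutrophil lineage and 1 of 84 in monocyte-macrophages. In dendritic, B and T or NK cells it was found for 0, 1 and 0 of 83. Over all genes 119 to 495 per class had such a p, and DESeq2 called 2 to 162 genes of any kind. Without the low-count filter edgeR called 0 to 583 genes of any kind per class. For a share, 2 against 2 libraries cannot go below an exact permutation p of 0.333.

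Over all cells the share of the set was 9.44% and 7.19% in the controls and 11.1% and 12.2% in the adenosine libraries. In the neutrophil lineage it was 6.53% and 2.09% against 9.18% and 8.67%. The groups did not overlap (exact permutation p = 0.333 for both, adjusted p = 0.515). Promyelocytes made up 4.00%, 0.0831%, 6.76% and 6.60% of the lineage cells in the 4 libraries, so they were fewer where the share was lower, and their part in the difference was not tested. The adenosine pair lay wholly above the control pair for 67 of 85 genes over all cells and wholly below it for 1, against 27.4% and 10.1% of all genes tested. In the lineage these counts were 79 and 1, against 31.9% and 10.2%, and the set's median log2 was 0.81. The fit without control 1 leaves control 2 alone and assumes that it varies like the adenosine libraries. Its calls enter only the ranges over left-out libraries given further below, and nothing is concluded from them.

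Within a stage the groups differed in share by fewer points than over the lineage. In mature neutrophils the share was 2.13% ± 0.481 (SD, n = 2) in the controls and 2.29% ± 0.0128 (SD, n = 2) in the adenosine libraries, with a median log2 of 0.00. In that class 3 of 84 genes lay higher in both adenosine libraries and 10 lower, against 12.7% and 15.3% of all genes tested. In immature neutrophils the share was 3.62% and 3.28% in the controls and 4.58% and 4.12% with adenosine. That class joins dividing and non-dividing cells. In dividing cells alone the share was 5.56% and 4.65% in the controls and 7.51% and 6.07% with adenosine, so the groups did not overlap (a difference of 1.68 points, exact permutation p = 0.333, the smallest that 2 libraries against 2 allow). In non-dividing cells the difference was 0.15 points, also with no overlap, but it reversed when abundant neutrophil products were left out. In immature neutrophils 58 of 84 genes lay higher in both adenosine libraries and 0 lower, against 15.1% and 5.71%. Rpl36a had the lowest p there, with 144 and 93.5 CPM in the controls and 236 and 165 CPM with adenosine (log2 0.60, SE 0.225, unadjusted p = 0.0289). The change in mature neutrophils was also set against that in immature neutrophils in a test of the difference itself, which called 0 genes, with a median of -0.18 over the set and 4 of 84 at an unadjusted p under 0.05.

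In monocyte-macrophages the genes lay on both sides of 0, 41 above and 43 below. In dendritic cells 82 of 83, in B cells 80 of 83 and in T or NK cells 65 of 83 had a fitted value below 0, and none was called. Of all genes tested, 48.7% in dendritic, 50.4% in B and 55.1% in T or NK cells lay above 0. Genes of the set can shift together with 1 library or with the scaling, so these counts are no independent observations. The median log2 was -0.01 in monocyte-macrophages, -0.25 in dendritic cells, -0.38 in B cells and -0.12 in T or NK cells. By library size it was -0.096 in dendritic, -0.34 in B and -0.17 in T or NK cells. The T or NK class joins dividing and non-dividing cells, and its makeup differed between libraries. Of its Rpl7 UMIs, for example, dividing cells held 60 of 1817, 50 of 468, 39 of 1659 and 6676 of 19421. The part of this makeup in the T or NK values was not tested. In monocyte-macrophages 18 of 84 genes lay higher in both adenosine libraries and 3 lower, against 15.6% and 8.59% of all genes tested. Genes that lay lower in both numbered 14 of 83 in dendritic, 12 of 83 in B and 18 of 83 in T or NK cells, against 7.17%, 15.5% and 10.9%, and 0 lay higher, against 19.8%, 14.5% and 9.4%. Without control 2 the median was 0.13 in B cells and 0.09 in T or NK cells.

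The lowest p in B cells, in all cells and in monocyte-macrophages belonged to second copies. Rps27l in B cells had 199 and 164 CPM in the controls and 78.8 and 100.1 CPM in the adenosine libraries, with no overlap (log2 -1.03, SE 0.325, unadjusted p = 0.00876, adjusted p = 1.000). Rpl3l had 4.48 and 15.3 against 3.19 and 2.01 CPM over all cells (log2 -2.19, SE 0.766, unadjusted p = 0.0368, adjusted p = 0.860), where the share of mature neutrophils, the class with most of it, was also highest in control 2. In monocyte-macrophages Rpl3l had 2.85 and 3.50 against 1.42 and 0.942 CPM (log2 -1.51, SE 0.483, unadjusted p = 0.0251). None of these passed the adjusted threshold.

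**Figure D4:**
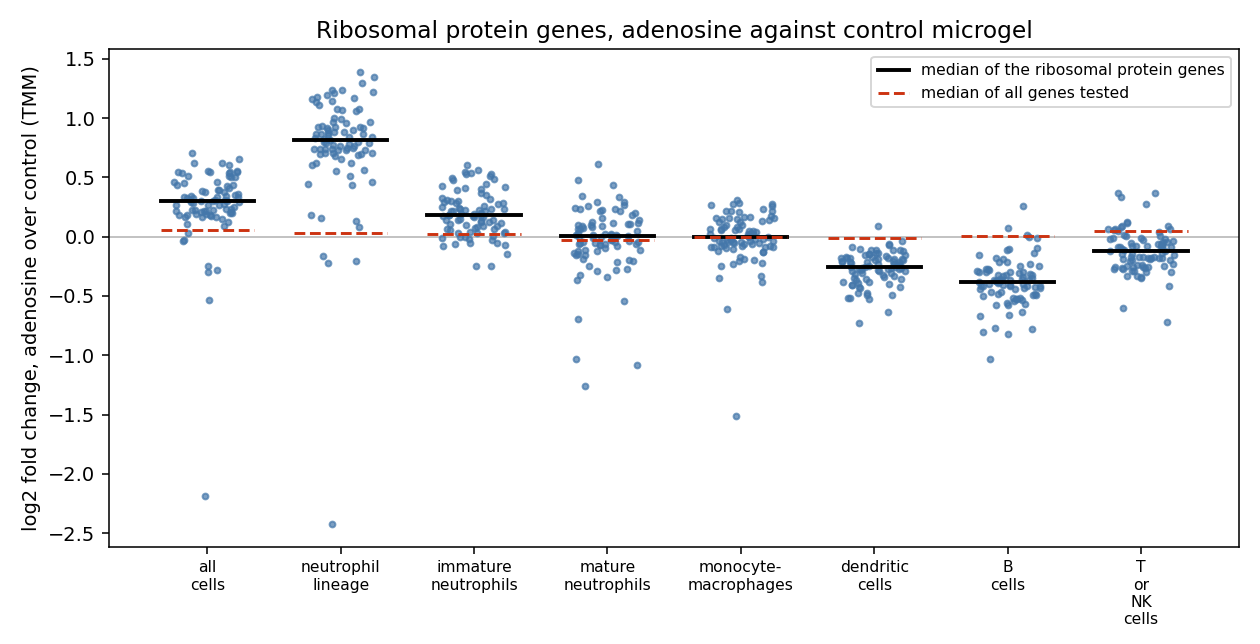
Log2 fold changes (adenosine over control, TMM) of the ribosomal protein genes in 8 classes, 1 point per gene. The median of the set is 0.81 in the neutrophil lineage, 0.00 in mature neutrophils and -0.38 in B cells, and no gene passed the adjusted threshold.

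Some differences between single libraries recurred from class to class. For 80 genes with at least 20000 UMIs, the deviation of each library from the gene's mean over the libraries was taken on the log2(CPM + 1) scale, relative to the set, in 7 classes. The same library was highest in all 7 classes for 14 genes and lowest in all 7 for 20. The share among genes outside the set is not given here, so these counts are not shown to be particular to it. Adenosine 1 was the highest for Rpl37a, Rpl41 and Rpl38, by 0.41, 0.38 and 0.36 in the mean of the classes, and the lowest for Rplp0 and Rpl15, by -0.34 and -0.35. Control 2 was the highest for Rpl10 and Rpl23a, by 0.57 and 0.34. Rpl10, a large subunit protein that joins late in assembly, had 1252, 2810.3, 909 and 1444 CPM in T or NK cells and 214, 502, 148 and 175 CPM in mature neutrophils.

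The deviations of the adenosine libraries varied with transcript length. The 21 shortest of the 80 (367.5 to 543.5 bases, by the median annotated coding transcript) deviated by a median of 0.21 in adenosine 1 and -0.12 in adenosine 2, so the 2 libraries of 1 treatment lay on opposite sides. In control 1 and control 2 these medians were 0.020 and -0.083, the second near that of adenosine 2. Deviations are taken from the mean over the libraries, so a high library pulls the others down and opposite signs are partly forced. The 20 longest deviated by medians of -0.037 and 0.038 in those libraries and of 0.0024 and 0.0085 in control 1 and control 2. Across the 80 genes Spearman's rho between length and the mean deviation was -0.469 in adenosine 1, 0.398 in adenosine 2, 0.247 in control 2 and -0.135 in control 1. In single classes it was -0.514 to -0.317 in adenosine 1 and 0.207 to 0.489 in adenosine 2, while it changed sign between classes in control 1 (-0.313 to 0.0933) and control 2 (-0.0536 to 0.420). Genes are not independent replicates and each value comes from 1 library, so this is a description.

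**Figure D5:**
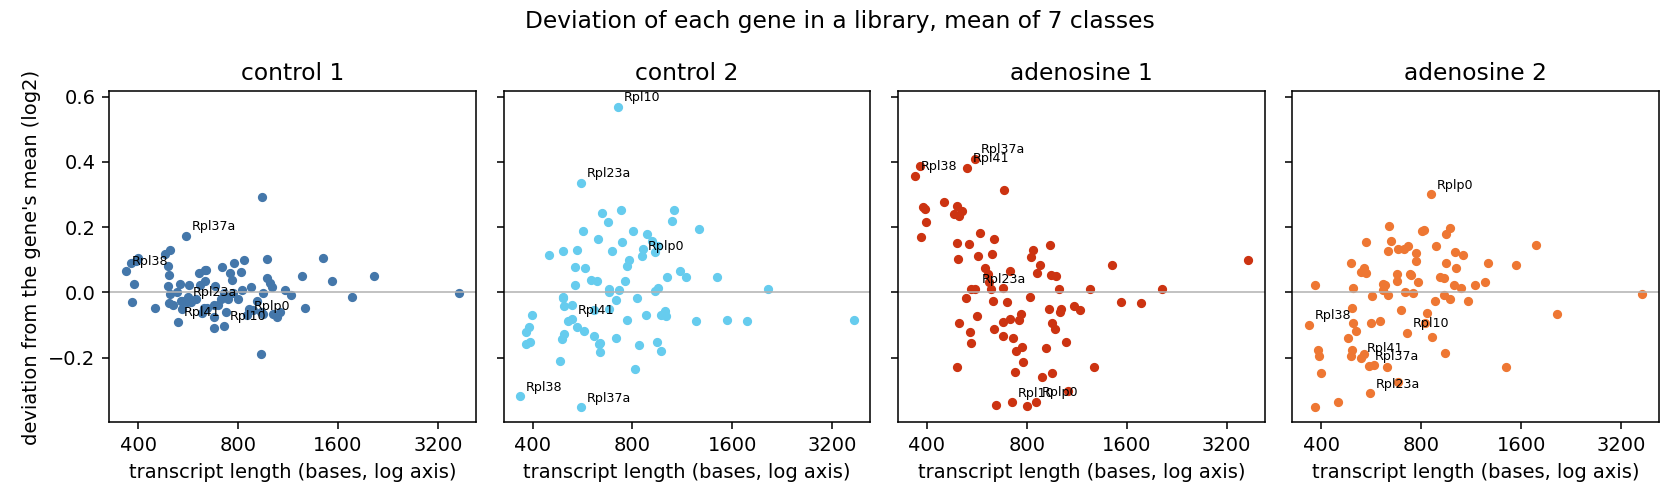
Deviation of each of 80 ribosomal protein genes in each library (log2, mean of 7 classes, vertical axis) against transcript length in bases (horizontal axis). Short transcripts lie higher in adenosine 1 and lower in adenosine 2, with Spearman's rho of -0.469 and 0.398.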

How the data were processed

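Single-cell libraries (3' v2 kit, MGISEQ-2000) of 4 samples were analysed. The authors deposited UMI counts, not normalized, for each gene in each barcode. Per the submitters' processing notes, the authors used bcl2fastq and Cell Ranger 7.0.0 with the build mm10; which annotation release they used is not given in the sources used here. Both the members and the lists of genes were chosen with earlier results of these data known.

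Barcodes with at least 200 genes and under 10% mitochondrial UMIs were kept (1576 removed), and 2537 with the highest Scrublet scores (scanpy 1.11.5) were removed at 0.8% per 1000 barcodes, since the automatic threshold marked 0% to 1.95% per library. Depth was 32277757 to 68117846 UMIs per library. Cells went to the class with the highest mean marker score (at least 0.15, margin 0.02), and immature neutrophils with a cell cycle score of at least 0.15 were called dividing; 646 cells stayed unassigned. Counts were summed per class and library where it held at least 20 cells, and tested with edgeR 4.0.16 (filterByExpr, TMM, quasi-likelihood, Benjamini-Hochberg over all genes tested) in R 4.3.3, with libraries as blocks between classes and group alone between treatments. Shares were compared with exact permutation tests in scipy 1.17.1. On simulated counts of all cells, 83.8% of genes changed 2-fold were found at a CV of 0.1 between libraries, and 0% at a CV of 0.4. For adenosine against control in all cells, edgeR put the variation between libraries at 0.486, above both settings.

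Named genes were up to 10 per direction past an adjusted p of 0.05 with the largest changes, up to 4 with the lowest p where none passed, the second copies with their main genes, and a short list of translation genes. Alternatives were library size scaling, TMM without the set, DESeq2 1.42.0, no low-count filter, no doublet removal, a stricter mitochondrial limit, a wider margin, a replicate block, other share definitions and leaving out each library. The replicate numbers are not said to pair the libraries. Some genes that meet this rule are not reported here.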

Additional observations from a re-analysis of the deposited data

How the results depend on the processing

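Scaling by library size in place of TMM moved the set's median log2 to 1.82 for promyelocytes against dividing immature neutrophils, 1.19 for dividing against non-dividing, 2.65 for monocyte-macrophages against mature neutrophils (with Fau at 0.51, reversed) and 0.031 for dendritic cells against monocyte-macrophages. For adenosine against control it gave 0.33 in immature neutrophils, 0.071 in monocyte-macrophages, -0.096 in dendritic cells and -0.25 for the mature minus immature difference. Calls became 11 higher and 2 lower (B cells), 7 higher and 1 lower (dendritic cells) and 1 higher (T or NK cells). Without a library term 31 genes fell in mature neutrophils, 2 were lower in B cells, and 0 were higher and 0 lower in dendritic cells. DESeq2 gave 2 higher in T or NK cells, a B cell median of -0.012 and a mature minus immature median of -0.16. TMM without the set gave 1 higher in T or NK cells and medians of -0.029 (monocyte-macrophages, adenosine) and -0.20 (mature minus immature).

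Without the low-count filter the medians for adenosine were -0.0032 in mature neutrophils, 0.0043 in monocyte-macrophages and -0.29 for mature minus immature, and that of B cells was -0.11. Calls were 1 lower in the lineage with adenosine, 2 lower in dividing cells, and 1 higher and 6 lower in dendritic cells. Over all genes the unfiltered adenosine fits called 0 in all cells, 102 in immature and 409 in mature neutrophils and 583 in the lineage. They called 1 in monocyte-macrophages, 29 in dendritic, 63 in B and 82 in T or NK cells. Without doublet removal the medians were -0.010, -0.028 and -0.21, calls were 2 lower in dividing cells, 3 lower in B cells and 1 higher in T or NK cells, and the adenosine share difference in non-dividing cells was 0.365 points. With the mitochondrial limit at 5% the medians were -0.022, -0.045 and -0.18, that of B cells was -0.057, and 1 gene was lower in dendritic cells. A wider margin between marker scores gave -0.031 in monocyte-macrophages, -0.10 for mature minus immature and 0 lower in dividing cells.

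By the median over cells the adenosine share differences were 1.13 points (all cells), 0.205 (immature), 0.491 (lineage), 1.39 (monocyte-macrophages) and 0.661 (dividing), and the class differences 2.11 (dividing minus non-dividing) and 17.0 (promyelocytes minus dividing). In cells with 3000 to 6000 UMIs, chosen after seeing the data, adenosine gave 0.344 (immature), 0.534 (lineage), 0.368 (non-dividing), 0.255 (dividing) and, reversed, 1.72 (dendritic cells). There the class differences were 0.748 (dividing minus non-dividing), 12.9 (promyelocytes minus dividing), 7.82 (monocyte-macrophages minus mature), -0.0686 (T or NK minus B cells) and -0.562 (dendritic cells minus monocyte-macrophages). Without abundant neutrophil products the non-dividing difference with adenosine reversed to -0.148, and class differences were 4.53 (dividing minus non-dividing), -1.57 (mature minus non-dividing) and 13.1 (promyelocytes minus dividing). The causes of these moves were not tested.

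Leaving out each library in turn gave adenosine medians of 0.061 to 0.27 (immature), -0.15 to 0.17 (mature), -0.073 to 0.060 (monocyte-macrophages), -0.39 to -0.061 (dendritic), -0.77 to 0.13 (B) and -0.43 to 0.094 (T or NK cells), with 0 to 2 higher and 0 to 4 lower in mature neutrophils and 0 to 73 higher and 0 to 1 lower in the lineage. Class counts were 1 to 5 higher and 22 to 62 lower (mature), 3 to 4 higher and 2 to 12 lower (B, median -0.16 to 0.12), 0 to 1 higher (T or NK) and 0 to 3 higher and 0 to 22 lower (dendritic). Share differences were -0.180 to 0.500 (mature, adenosine), -7.27 to 0.721 (B, adenosine) and -0.199 to 1.03 (dendritic minus monocyte-macrophages). Each of these adenosine fits leaves 1 library alone in its group, so nothing is concluded from their counts of calls.

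With the replicate number as a block, 0 ribosomal protein genes were called in each of the 8 classes, and the mature median was -0.029. Over all genes the block called 8 in immature neutrophils, 2 in B cells and 0 in the other classes. Across genes, the deviations of same-numbered libraries, not their levels, correlated at -0.136 over all cells and -0.083 to 0.332 elsewhere. The crossed pairing, added after seeing the data, called 0 ribosomal protein genes in each class. Over all genes it called 0 in all cells, mature neutrophils and monocyte-macrophages, 25 in immature neutrophils, 1 in the lineage, 67 in dendritic, 9 in B and 6 in T or NK cells. With 2 libraries a group, depth is not the only limit: at a CV of 0.4, 1.04% of genes changed 4-fold were found in simulated counts of all cells.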
